A study of Mus musculus with 14 samples.

Results

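The 9 genes Axin2, Apcdd1, Notum, Nkd1, Lef1, Tcf7, Tcf7l1, Rnf43 and Znrf3 make up the feedback targets of canonical Wnt signalling and the Tcf/Lef transcription factors examined in these cultures, and they were taken by gene symbol from the deposited expression table. All 9 were found among the 23427 gene rows, and 5 of them (Axin2, Apcdd1, Nkd1, Znrf3 and Tcf7l1) were expressed strongly enough to be tested. The other 4 (Tcf7, Lef1, Rnf43 and Notum) stayed under 1 FPKM (fragments per kilobase of transcript, scaled to library size) in every library. They are described by their values, apart from tests of Tcf7 and Notum under a lower filter or none.

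Canonical Wnt ligands bind a Frizzled receptor together with Lrp5 or Lrp6, which stops a cytoplasmic destruction complex from degrading beta-catenin, and beta-catenin then enters the nucleus and works with Tcf/Lef proteins on target genes. Several of the targets feed back on the pathway. Axin2 is a scaffold of the destruction complex, Nkd1 binds dishevelled, Apcdd1 is a membrane protein that binds Wnts and Lrp co-receptors, Notum removes the lipid that Wnts need for receptor binding, and Rnf43 and Znrf3 are membrane ubiquitin ligases that clear Frizzled from the cell surface. In the oligodendrocyte (OL) lineage the pathway is known for holding precursors back from differentiation, while Tcf7l2, the Tcf/Lef factor best known in this lineage, marks newly differentiating OLs.

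The study measured mRNA in primary mouse OL precursor cells (OPCs) and asked what knockdown of Sbp2l, listed in the table under its gene symbol Secisbp2l, does to their differentiation. Per the methods, OPCs were purified with an antibody against PDGFRα from pooled cortices of pups and differentiated by withdrawing PDGF-AA and adding T3, although the growth note of the labels names a serum medium instead. All cells came from the strain C57BL/6J. There were 7 groups of 2 libraries: wild-type cells at Day0, and at Day3 wild-type cells that were non-treated, mock transfected, or transfected with NC siRNA #1 or NC siRNA #2 (non-targeting siRNAs), plus cells with siSbp2l (labelled Sbp2l knockdown) and with siPdgfra (labelled Pdgfra knockdown). The non-treated, mock and NC groups together are the 4 Day3 controls. Libraries of a group were replicate cultures per the methods, so p-values rest on the spread between these cultures. That spread was pooled over all groups fitted, also those outside a comparison, and moderated over genes.

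Estimated depths ran from 6561225 fragments in NC siRNA #2 replicate 2 to 31623590 in Day0 replicate 1. Secisbp2l was at 3.82 and 3.91 FPKM in siSbp2l and at 135 to 255 in the 8 control libraries, and Pdgfra was at 2.69 and 3.30 FPKM in siPdgfra and at 32.4 to 72.1 in those controls, so both knockdowns were as labelled. The replicates of the non-treated group stood apart, with an SD of their log2 difference of 0.457 over genes and 252 genes over 2-fold apart, while the other pairs had an SD of 0.148 to 0.2. Markers of the labelled lineage were present: the summed level of 5 precursor genes was 742 to 787 FPKM at Day0, 228 to 483 in the Day3 controls, 435 to 454 in siSbp2l and 102 to 113 in siPdgfra, and the summed level of 6 of 7 OL genes was 392 to 435 at Day0, 4617 to 8696 in the controls, 1596 to 1780 in siSbp2l and 4094 to 4736 in siPdgfra. Of the other cell types, 7 endothelial markers summed to 0.929 FPKM or less in every library, with Cldn5 and Cdh5 listed at 0 in all 14, and 8 pericyte and fibroblast markers to 0.529 or less. The 6 microglial markers summed to 0.534 to 9.46 FPKM, nearly all of it P2ry12. The 5 astrocyte genes summed to 10.2 to 10.7 FPKM at Day0 and 54.5 to 103 in the controls. They summed to 65.3 to 65.4 in siSbp2l and 27.5 in both siPdgfra libraries. The astrocyte sum was mostly Slc1a2 at Day0 and mostly Gfap at Day3. The 5 neuronal genes summed to 27.4 to 29.3 at Day0 and 47.8 to 276 in the controls. They summed to 199 to 201 in siSbp2l and 236 to 240 in siPdgfra. The neuronal sum was mostly Tubb3 in every library. Snap25 was lower at Day3 (0.753 or less) than at Day0 (1.783 to 2.298). Syt1 was below Day0 (2.408 to 2.71) in the controls (1.705 or less) and above it in both knockdowns (4.49 to 5.159). Rbfox3 was at 1.096 to 1.198 FPKM in siSbp2l and at 0.599 or less in every other group, and Stmn2 was at 0.076 or less. In such bulk RNA, fewer cells of a type and less RNA per cell cannot be told apart, and the part of these markers in the results that follow was not tested.

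The members did not move as a block. Axin2 and Tcf7l1 were higher in non-treated Day3 than in Day0 cells, Nkd1 was lower, and Znrf3 stayed within a narrow range. Apcdd1 set siSbp2l apart from every other group, and Nkd1 and Axin2 set siPdgfra apart from the other Day3 groups. Genes were called when a limma test over all genes gave an adjusted p under 0.05 and at least a 2-fold change of FPKM + 1. This scale understates changes of genes with low FPKM, and fold changes here are log2 values on it unless FPKM is named.

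**Figure D1:**
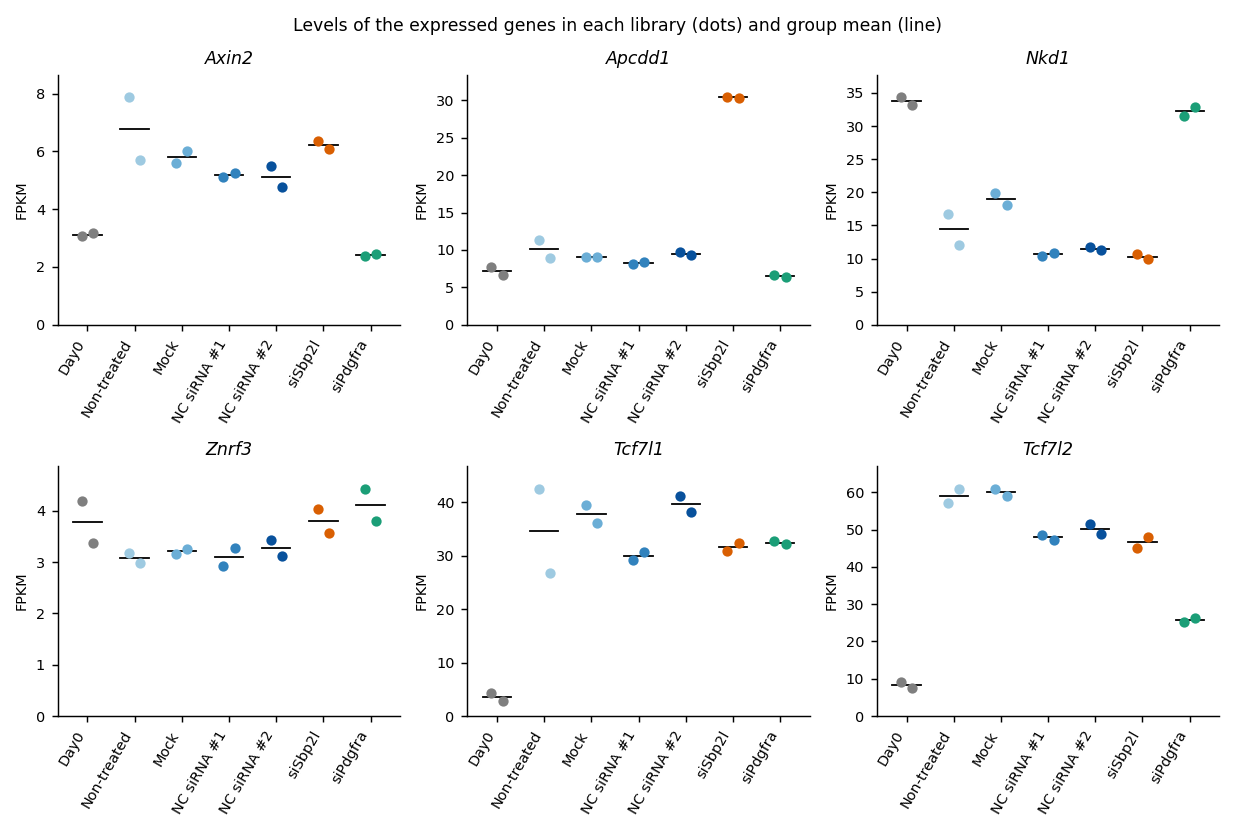
FPKM of the 5 expressed members and of Tcf7l2 (vertical axes, each from 0) in the 7 groups (horizontal axes). Each dot is a library and each line the mean of a group's 2 libraries. The Apcdd1 dots of siSbp2l at 30.4 lie above all others, and the Nkd1 dots of siPdgfra lie near those of Day0.

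Axin2, the target most widely used as a readout of canonical Wnt signalling, was at 3.07 and 3.16 FPKM at Day0. At Day3 it was at 7.88 and 5.70 in non-treated, 5.59 and 6.01 in mock, 5.12 and 5.24 in NC siRNA #1 and 5.49 and 4.76 in NC siRNA #2 cells. It was at 6.35 and 6.07 FPKM in siSbp2l and at 2.37 and 2.46 in siPdgfra. The siPdgfra libraries were the lowest of all 14, the Day0 libraries came next, and the other Day3 libraries lay above both without a gap between siSbp2l and the controls. Against Day0, Axin2 was higher in non-treated cells, the log2 change being 0.91 ± 0.126 (± SE; adjusted p by limma = 6.66e-05), 1.87-fold and so not called, though without non-treated replicate 2 (1.11), with upper-quartile scaling (1.02) and with a pseudocount of 0.1 (1.08) it was. In siPdgfra it was lower than the controls by 0.97 on the log2 scale (SE 0.106, limma, adjusted p = 4.4e-05), a 1.95-fold change that was called against 1 of the 4 controls taken singly. That change passed 2-fold with median-ratio (-1.03) and upper-quartile scaling (-1.04), with a pseudocount of 0.1 (-1.20), against the non-treated and mock groups alone (-1.08) and without non-treated replicate 2 (-1.02). For siSbp2l the log2 difference was 0.11 ± 0.106 (limma, adjusted p = 0.393), and it was -0.03 with median-ratio scaling.

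Axin2 lies on chromosome 11 (108920349 to 108950781, plus strand, mm10) and its RefSeq start is the first base of the deposited gene. Promoter windows of 250 bases before and 50 after a start were searched on both strands for the Tcf/Lef core spelled CTTTGAA or CTTTGAT, with CTTTGTA and CTTTGTT also counted. The RefSeq table held 11 windows for 6 of the members (Axin2, Nkd1, Tcf7l1, Tcf7, Lef1 and Rnf43), and 1 of the 11 held a match, beside 16.9% of all 32851 windows. The sequences before the starts of the 2 feedback genes in the table whose level moved, Axin2 (chr11:108920099-108920348, plus strand) and Nkd1 (chr8:88527383-88527632, plus strand, inside the longer gene span of the deposited table), and of the window with the match, at an inner start of Lef1 (chr3:131156044-131156293, plus strand), are given 5′ to 3′ for GRCm38.p6, with the match in capitals.
Axin2: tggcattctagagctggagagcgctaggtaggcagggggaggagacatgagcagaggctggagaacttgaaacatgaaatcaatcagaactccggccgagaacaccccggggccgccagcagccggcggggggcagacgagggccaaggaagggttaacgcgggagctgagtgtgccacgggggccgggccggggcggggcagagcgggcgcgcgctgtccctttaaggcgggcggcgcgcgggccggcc
Nkd1: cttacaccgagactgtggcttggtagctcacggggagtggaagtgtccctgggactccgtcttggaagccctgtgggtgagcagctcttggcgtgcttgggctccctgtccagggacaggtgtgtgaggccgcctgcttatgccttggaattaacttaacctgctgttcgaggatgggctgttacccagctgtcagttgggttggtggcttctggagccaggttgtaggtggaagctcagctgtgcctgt
Lef1: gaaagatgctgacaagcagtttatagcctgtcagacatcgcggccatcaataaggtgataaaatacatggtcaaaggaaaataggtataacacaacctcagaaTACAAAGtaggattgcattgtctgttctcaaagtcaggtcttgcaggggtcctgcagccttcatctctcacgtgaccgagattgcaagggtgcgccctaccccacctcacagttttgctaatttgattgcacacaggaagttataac
The Lef1 match is the reverse strand spelling of CTTTGTA and begins at base -147 from that start. A match is a run of letters and not a binding site, and windows without one say nothing of Tcf/Lef proteins acting elsewhere.

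Apcdd1 (chromosome 18, plus strand) was at 7.70 and 6.65 FPKM at Day0. At Day3 it was at 11.3 and 8.93 in non-treated, 9.02 and 9.12 in mock, 8.10 and 8.44 in NC siRNA #1 and 9.68 and 9.37 in NC siRNA #2 cells. It was at 30.4 FPKM in both siSbp2l libraries and at 6.64 and 6.43 in siPdgfra. The siSbp2l values lay far above every other library, and the siPdgfra values lay at the lower end, next to Day0 replicate 2. Against the 4 controls the log2 fold change in siSbp2l was 1.62 ± 0.0866 (limma, adjusted p = 4.49e-07), 3.08-fold, and Apcdd1 was called higher against each of the 4 controls singly, with 1.51 to 1.76. Of all genes tested, 1.19% were called higher and 2.03% lower in siSbp2l against every single control. In siPdgfra Apcdd1 was lower by 0.44 on the log2 scale (SE 0.0866, limma, adjusted p = 0.00183), short of 2-fold, and from Day0 to non-treated Day3 it was higher by 0.44 (limma, adjusted p = 0.00425). The endothelial markers, named here because Apcdd1 is also a Wnt target of brain endothelium, summed to 0.228 to 0.553 FPKM in siSbp2l and 0.076 to 0.647 in the controls.

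Nkd1 (chromosome 8, 88521344 to 88594887, plus strand) was high in the Day0 and siPdgfra groups, where Axin2 was low. It was at 34.3 and 33.1 FPKM at Day0. At Day3 it was at 16.7 and 12.1 in non-treated, 19.9 and 18.1 in mock, 10.3 and 10.9 in NC siRNA #1 and 11.7 and 11.3 in NC siRNA #2 cells. It was at 10.6 and 9.90 FPKM in siSbp2l and at 31.6 and 32.9 in siPdgfra. The siPdgfra libraries thus lay just below the Day0 libraries and well above all other Day3 libraries. The siSbp2l libraries overlapped NC siRNA #1 and lay below NC siRNA #2. Nkd1 fell from Day0 to non-treated Day3 by 1.19 on the log2 scale (SE 0.126, limma, adjusted p = 7.63e-06). That call was lost with mock cells as the Day3 group (-0.80) and without non-treated replicate 2 (-0.97). In siPdgfra it rose against the 4 controls by 1.20 ± 0.106 (limma, adjusted p = 1.06e-05) and was called higher against 3 of them singly, the exception being mock (0.73). The controls themselves differed, since both NC siRNA groups were lower than the groups without siRNA by 0.54 on the log2 scale (SE 0.0946, limma, adjusted p = 0.00243). Against the non-treated and mock groups alone the siPdgfra change was 0.93, under 2-fold. For siSbp2l the value was -0.37 ± 0.106 (limma, adjusted p = 0.0151) against all 4 controls, but -0.10 (limma, adjusted p = 0.511) against both NC siRNA groups. Adjusted p was 0.0665 without siSbp2l replicate 1, where Nkd1 was at -0.41, and 0.133 without replicate 2, where it was at -0.32.

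Precursor and OL markers also differed between these groups, but not all of them in the way the members did. In siPdgfra, where Nkd1 was near its Day0 level and Axin2 below it, the summed precursor markers were the lowest of any group (102 to 113 FPKM) and the OL markers overlapped those of NC siRNA #2 (4617 to 4757 FPKM). The precursor sum includes the targeted Pdgfra. Of the other 4 precursor genes, Lhfpl3 (41.8 and 48.5 FPKM) and Cspg4 (0.448 and 0.54) lay below all control libraries (137 to 288 and 0.958 to 2.81), while Ptprz1 (53.7 and 57.5) and C1ql1 (3.29 and 3.64) overlapped them (54.0 to 118 and 2.59 to 5.95). Lhfpl3 was itself lower at Day0 (70.7 and 73.7 FPKM) than in the controls. In siSbp2l, where Apcdd1 was high, the OL markers (1596 to 1780 FPKM) lay between Day0 and the controls. Pdgfra in siSbp2l (144 and 150 FPKM) lay above all control libraries (32.4 to 72.1), while the other 4 precursor genes overlapped them. The log2 fold change of Pdgfra there was 1.54 ± 0.0834 (limma, adjusted p = 4.73e-07), and it was called higher against each of the 4 controls singly. The part of these markers in these results was not tested.

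The ubiquitin ligase pair was unevenly expressed. Znrf3 (chromosome 11, 5276329 to 5444847, minus strand) was at 4.20 and 3.37 FPKM at Day0, at 2.93 to 3.42 over the 8 control libraries, at 4.03 and 3.56 in siSbp2l and at 4.43 and 3.80 in siPdgfra. Both knockdown groups lay above the control range and overlapped each other and Day0. The log2 fold change was 0.30 ± 0.0865 in siPdgfra (limma, adjusted p = 0.0152) and 0.20 ± 0.0865 in siSbp2l (limma, adjusted p = 0.0724), and the difference between them was -0.09 ± 0.109 (limma, adjusted p = 0.508). The siPdgfra value fell short of the adjusted threshold without siPdgfra replicate 1, at 0.21 (limma, adjusted p = 0.18). Rnf43 was at 0.0073 to 0.141 FPKM, which is 1 to 7 fragments per library. Its lowest values were 1 fragment in Day0 replicate 1 and siPdgfra replicate 2 and 1 and 2 fragments in siSbp2l, and no ordering of the groups can be read at these counts.

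Notum was listed at 0 in 5 libraries and had 1 or 2 fragments in 8 others. The highest library was siSbp2l replicate 2 with 4 fragments (0.0913 FPKM), and the other siSbp2l library had 2 (0.0489 FPKM). A count of 0 allows up to 0.066 to 0.226 FPKM in the libraries concerned, limits that lie above the value of siSbp2l replicate 1.

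**Figure D2:**
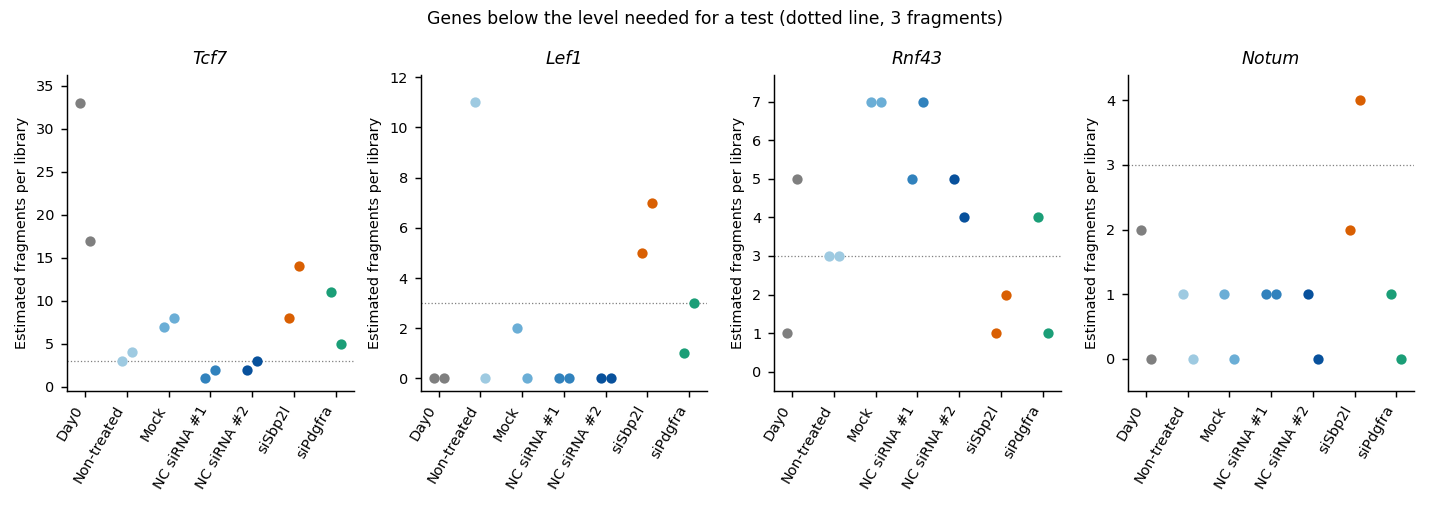
Estimated fragments per library (vertical axes) of Tcf7, Lef1, Rnf43 and Notum in the 7 groups (horizontal axes). Each dot is a library and the dotted line marks 3 fragments. Day0 holds the highest Tcf7 counts, 33 and 17, and most Lef1 and Notum dots lie at or below the line.

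Among the Tcf/Lef factors, Tcf7l1 (chromosome 6, 72626380 to 72788956, minus strand), known mainly as a repressor of Wnt targets, was at 4.40 and 2.77 FPKM at Day0. At Day3 it was at 42.6 and 26.7 in non-treated, 39.4 and 36.1 in mock, 29.2 and 30.7 in NC siRNA #1 and 41.2 and 38.1 in NC siRNA #2 cells. It was at 30.9 and 32.4 FPKM in siSbp2l and at 32.7 and 32.1 in siPdgfra. Every Day3 library was several fold above Day0, and both knockdown groups lay inside the control range. The log2 fold change from Day0 to non-treated Day3 was 2.95 ± 0.197 (limma, adjusted p = 1.64e-07), 7.70-fold, and it was 3.10 with mock as the Day3 group. Against the 4 controls it was -0.14 ± 0.136 in siSbp2l (limma, adjusted p = 0.394) and -0.11 ± 0.136 in siPdgfra (limma, adjusted p = 0.508). The 2 non-treated replicates of Tcf7l1 differed more from each other than either knockdown mean differed from the mean of the controls.

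Tcf7l2, which is not one of the 9 genes but is the remaining mammalian Tcf/Lef factor, was at 9.04 and 7.62 FPKM at Day0, 47.2 to 61.0 over the control libraries, 45.0 and 48.1 in siSbp2l and 25.2 and 26.3 in siPdgfra. Its siPdgfra libraries lay between Day0 and all other Day3 libraries, unlike those of Tcf7l1. In siSbp2l the log2 fold change of Tcf7l2 was -0.21 ± 0.0697 against the 4 controls (limma, adjusted p = 0.0269), short of 2-fold. It was -0.34 against non-treated and -0.36 against mock cells (limma, adjusted p = 0.00995 and 0.0083). Against NC siRNA #1 and NC siRNA #2 it was -0.04 and -0.11 (limma, adjusted p = 0.729 and 0.358). Tcf7l2 rose from Day0 to Day3 by 2.69 (limma, adjusted p = 7.61e-10) and fell in siPdgfra by 1.04 on the log2 scale (SE 0.0697, limma, adjusted p = 1.64e-06), a call held against 2 of the 4 controls singly and lost without the non-treated group among the controls (-0.996), with both NC siRNA groups as controls (-0.90) and with a pseudocount of 5 (-0.94). In FPKM, which is per length, Tcf7l1 made up 25.8 and 31.6% of the summed level of the 4 factors at Day0, 30.5 to 44.4% in the controls, 40.1 and 40.6% in siSbp2l and 54.8 and 56.2% in siPdgfra. Tcf7l1 was thus above Tcf7l2 in the siPdgfra libraries and below it in the other 12. The summed level was 10.7 and 13.9 FPKM at Day0, 77.8 to 101 in the controls, 76.1 and 81.0 in siSbp2l and 58.2 and 58.6 in siPdgfra.

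**Figure D3:**
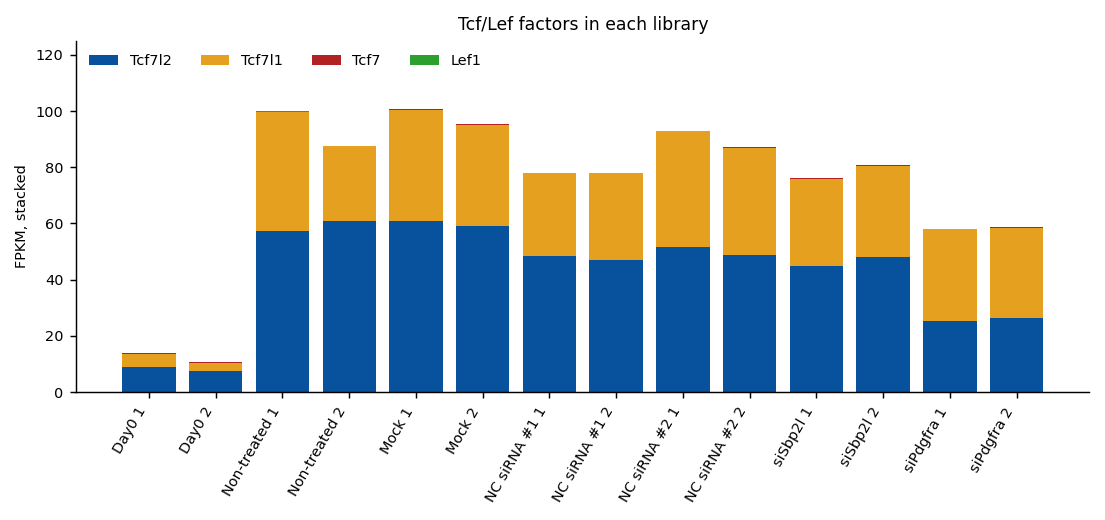
FPKM of the 4 Tcf/Lef factors (vertical axis, stacked) in each of the 14 libraries (horizontal axis, group and replicate). Tcf7 and Lef1 are too low to see in most bars, and the Tcf7l1 part exceeds the Tcf7l2 part in the siPdgfra bars.

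The factors best known as activators were near the limit of detection. Tcf7 was at 0.466 and 0.338 FPKM (33 and 17 fragments) at Day0 and at 0.0227 to 0.288 FPKM (1 to 14 fragments) at Day3, so every Day3 library lay below both Day0 libraries. With a filter of 0.1 FPKM in place of 1, Tcf7 was lower in non-treated Day3 than in Day0 cells by 0.38 on the log2 scale (limma, adjusted p = 0.002), and it passed no other comparison. Lef1 was listed at 0 in both Day0 libraries and in all 4 NC siRNA libraries. It had 11 and 0 fragments in non-treated, 2 and 0 in mock, 5 and 7 in siSbp2l and 1 and 3 in siPdgfra cells. The non-treated pair alone spanned the whole range, so the siSbp2l values cannot be told from the controls.

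Counted over the comparisons, non-treated Day3 against Day0 called 1 member higher (Tcf7l1) and 1 lower (Nkd1) of the 5 tested, beside 11.4% of all genes called higher and 15.2% lower. The 4-control comparison called 1 member higher in siSbp2l (Apcdd1) and none lower, beside 3.12% and 4.08% of genes. It called 1 member higher in siPdgfra (Nkd1) and none lower, beside 3.97% and 4.03%, and 1.77% of genes were called higher and 1.84% lower in siPdgfra against each control singly, none of them a member. With 5 genes tested such counts are read only as a list of names. The median of all tested genes was itself shifted by -0.12 at Day3, 0.15 in siSbp2l and 0.09 in siPdgfra, and the split of all siSbp2l calls into higher and lower went from 363 and 475 to 218 and 618 with median-ratio and to 245 and 581 with upper-quartile scaling. Apcdd1 was called higher in siSbp2l under each scaling.

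The knockdowns share their 4 controls, so they were also set against each other directly. Between siSbp2l and siPdgfra, Apcdd1 was higher in siSbp2l by 2.06 ± 0.110 (limma, adjusted p = 4.96e-07) and Axin2 by 1.08 ± 0.134 (limma, adjusted p = 0.000103), while Nkd1 was lower by 1.56 on the log2 scale (SE 0.134, limma, adjusted p = 9.42e-06). These 3 of the 5 tested members were called, beside 6.94% of genes called higher and 6.73% lower. The Axin2 call was lost with median-ratio scaling (0.997) and with a pseudocount of 5 (0.60). Tcf7l1 differed by -0.03 ± 0.172 (limma, adjusted p = 0.89). Between the controls, no member was called for the NC siRNAs against cells without siRNA, where 0.472% of genes were called higher and 0.807% lower and where 2 members (Axin2 and Nkd1) had an unadjusted limma p under 0.05. None was called for NC siRNA #2 against NC siRNA #1, beside 1.63% and 2.36% of genes, where Tcf7l1 alone had an unadjusted limma p under 0.05 (0.046, log2 difference 0.39).

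**Figure D4:**
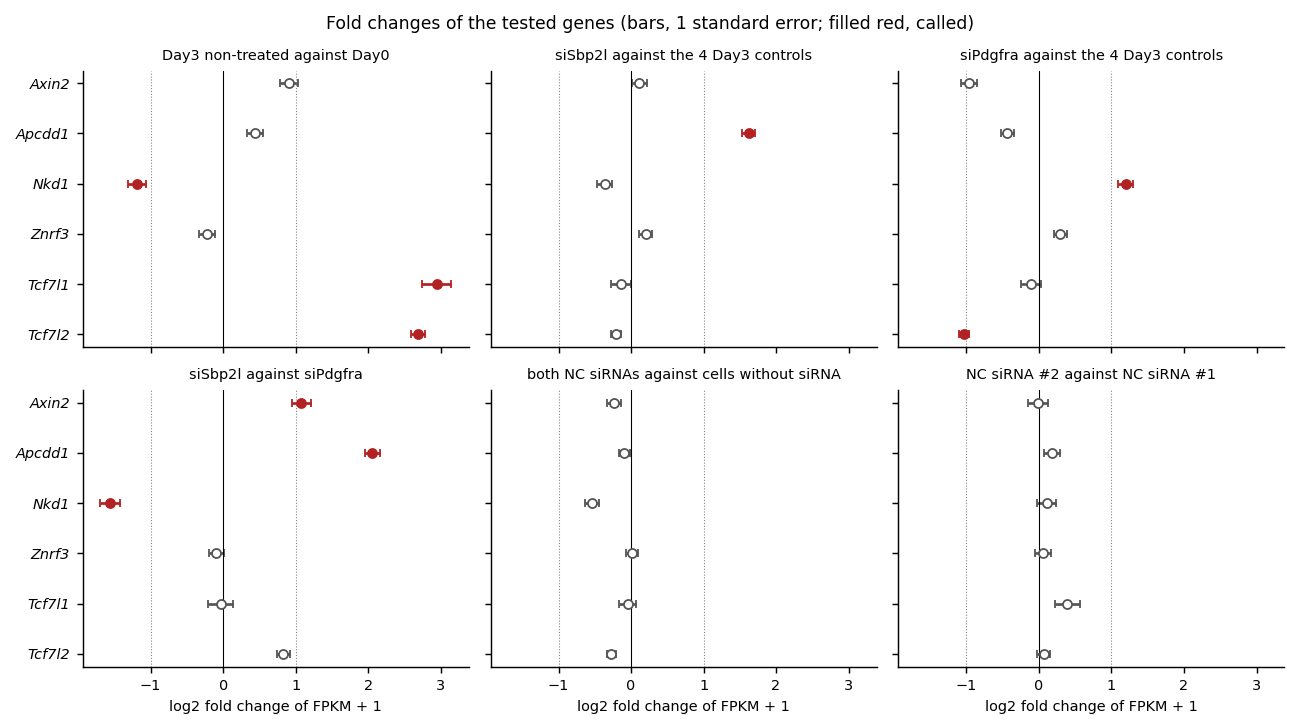
Log2 fold changes of FPKM + 1 (horizontal axes) for the 5 tested members and Tcf7l2 (vertical axes) in the 6 comparisons, 1 panel each. Bars are 1 standard error, dotted lines mark 2-fold, and filled red points were called. Apcdd1 at 1.62 is the called member of siSbp2l and Nkd1 at 1.20 that of siPdgfra.

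The rest of the pathway was followed in 91 listed genes, of which 90 were in the table. From Day0 to non-treated Day3, 12 of 55 tested were called higher and 4 lower, beside 11.4% and 15.2% of all genes. Genes under 1 FPKM at Day0 passed the filter only through Day3 libraries, so the count called higher partly follows from the filter. The median of the 55 was -0.13 beside -0.12 over all genes. Both genes of ligand secretion rose, the Wnt acyltransferase gene Porcn by 1.45 and the Wnt carrier gene Wls by 1.16. Of 6 tested ligands, Wnt7b (1.41), Wnt5b (1.20) and Wnt5a (1.19) rose, and each was under 1 FPKM at Day0. Of 12 receptors, Fzd8 (2.45), Fzd5 (1.43), Fzd3 (1.12) and Ror1 (1.02) rose. At Day0, Fzd5 was at 0.270 to 0.379 FPKM and Ror1 at 0.0625 to 0.201, so both were tested only through Day3 libraries, as were those ligands. Lgr5, an R-spondin receptor, fell from 5.77 and 6.38 FPKM to 0.984 and 1.12, and the Dkk receptor gene Kremen1, grouped with the antagonists, changed by -1.45. Among other known Wnt targets, which many signals besides Wnt also control, the cell cycle gene Ccnd1 changed by -4.27 and Myc by -2.15, while Bmp4 (1.98) and Cd44 (1.53) rose. Bmp4 was at 0.111 to 0.201 FPKM at Day0 and was likewise tested only through Day3 libraries. None of the 13 tested destruction complex and dishevelled genes was called.

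In siSbp2l, 6 of 52 tested pathway genes were called higher and 3 lower, beside 3.12% and 4.08% of all genes. The median of the 52 was 0.35 beside 0.15 over all genes. Tle4, a Groucho co-repressor, was at 104 and 111 FPKM in siSbp2l and 22.8 to 38.0 in the controls, giving 1.73 ± 0.0849 on the log2 scale (limma, adjusted p = 2.84e-07), whereas its relative Tle2 changed by -1.29. The other nuclear partner called was Bcl9l, which bridges beta-catenin to co-activators, at 1.04. Receptors moved both ways, with the Wnt co-receptor gene Lrp5 (1.28) and Fzd2 (1.17) higher and Fzd3 (-1.19) lower. The R-spondin receptor gene Lgr4 (1.07) and Myc (1.18) were higher and Tnfrsf19 (-1.37) was lower. Bcl9l and Lgr4 passed 2-fold by less than the median shift of 0.15 over all genes. Calls of the pathway genes under other scalings are not given here. No ligand, secretion gene, antagonist or destruction complex gene was called.

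In siPdgfra, 2 of 52 were called higher and 4 lower, beside 3.97% and 4.03% of all genes. The median of the 52 was 0.18 beside 0.09 over all genes. Fzd8 was at 41.1 and 38.7 FPKM in siPdgfra and 10.1 to 16.6 in the controls, giving 1.51 ± 0.109 on the log2 scale (limma, adjusted p = 3.18e-06). The secreted antagonist Frzb was also called higher (1.17), although NC siRNA #1 at 5.70 and 4.60 FPKM overlapped siPdgfra at 5.46 and 4.92. Those called lower were the co-repressors Tle3 (-1.23) and Tle2 (-1.12), Fzd3 (-1.08) and Tcf7l2. Tle2 and Fzd3 were called lower in both knockdowns, which share their controls.

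**Figure D5:**
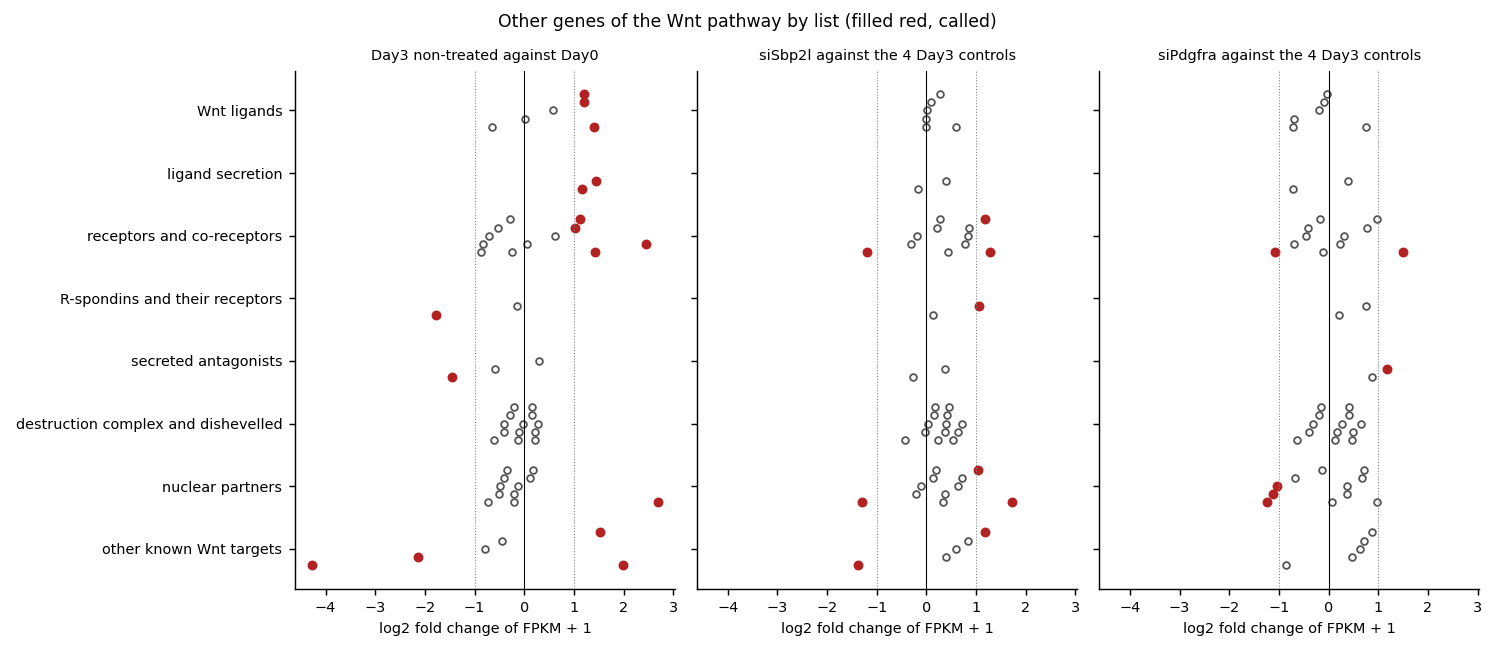
Log2 fold changes of FPKM + 1 (horizontal axes, 1 scale) of the other pathway genes tested, by list (vertical axis), for Day3 against Day0, siSbp2l and siPdgfra. Each point is a gene, dotted lines mark 2-fold and filled red points were called, 16, 9 and 6 in the 3 panels.

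Over the 14 libraries, log2(FPKM + 1) of Axin2 had a Pearson r of -0.78 with Nkd1 and 0.58 with Apcdd1, and Tcf7l1 of 0.915 with Tcf7l2. These are descriptions over libraries that fall into 7 groups and share their normalisation. By the same measure the genes most like Axin2 were Hes3 (0.976), Lonp2 (0.961) and 1810037I17Rik (0.955), and those most like Apcdd1 were Rftn2 (0.969), Cntn2 (0.96) and Elk3 (0.949). Nkd1 was most like Yars (0.953), Slc7a1 (0.944) and Aldh18a1 (0.942). Tcf7l1 was most like Bcas3 (0.992), Ypel3 (0.988) and Ccndbp1 (0.987), and Znrf3 like Nradd (0.895), Fam98c (0.876) and Snx21 (0.874).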

How the data were processed

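RNA was sequenced from 14 libraries (TruSeq Stranded mRNA). The authors processed the reads with OmicSoft ArrayStudio against mm10 and deposited FPKM values per gene, used here. A second deposited table gave gene positions, exon lengths and transcript numbers (other values), and its fold changes and p-values from the authors' own DESeq 2 comparisons were not used. The methods give a HiSeq system for the knockdown series, to which these libraries belong. Strand use in counting is not given in the sources used here. A column spelled Sbbp2l was read as siSbp2l and the plain Day3 columns as non-treated.

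Fragment numbers were estimated from the steps of low FPKM values, of which 88.65 to 92.5% came out whole within 0.1 fragment. A value of 0 was bounded by 3 fragments, which covers counting error only. Genes with at least 1 FPKM in at least 2 libraries were kept. limma 3.58.1 in R 4.3.3 (eBayes with trend and robust) was fitted to log2(FPKM + 1), over the 12 Day3 libraries (11650 genes) or, for Day0, all 14 (11874 genes), with two-sided p-values adjusted by Benjamini-Hochberg over all genes. Calls needed an adjusted p under 0.05 and at least 2-fold. The fit was tested on simulated data. Replicate numbers were not taken to pair the samples, since only 4 of 21 pairs of groups had deviations correlated over 0.1. Others were negative, down to -0.38, and a batch shared between groups under other numbers was not tested. Alternatives covered the pseudocount, filter, scaling, fold threshold, model, control groups, replicate block and each library left out.

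The members and the pathway and marker lists were chosen with earlier results of these data known. All members, Tcf7l2 and the targeted genes are named, with at most 4 called genes per list in Day3 against Day0 and in each knockdown, and the 3 genes with the highest Pearson r per tested member. Promoters came from RefSeq (GRCm38.p6).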

Additional observations from a re-analysis of the deposited data

How the results depend on the processing

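The number of members called was within 1.5 times the reported one in 137 of 146 alternatives. This tally says little of single calls, since a fall from 3 to 2 for siSbp2l against siPdgfra, where Axin2 was lost, lay within it. It also includes 23 alternatives for each of the control comparisons, whose reported count was 0. Without a fold threshold it was 4 for Day3 against Day0, 2 for siSbp2l, 4 for siPdgfra and 1 for the NC siRNAs against cells without siRNA, as the adjusted p alone then decides. With mock as the Day3 group it was 1, Nkd1 being lost. For siPdgfra it was 2 with a pseudocount of 0.1, median-ratio scaling or upper-quartile scaling, and ranged from 1 to 2 when each library was left out, the 2 arising without Non-treated replicate 2, Axin2 passing 2-fold in each case. A library left alone in its group was assumed to vary like the others.

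Reversals concerned differences near 0 that were not called. Axin2 in siSbp2l was -0.0314 with median-ratio scaling and -0.0058 with non-treated and mock cells as controls. For the NC siRNAs against cells without siRNA, Znrf3 was -0.0226 with median-ratio and -0.0365 with upper-quartile scaling and ranged from -0.0168 to 0.0435 over left-out libraries, and Tcf7l1 from -0.2116 to 0.1148. Over left-out libraries Tcf7l1 in siSbp2l against siPdgfra ranged from -0.0668 to 0.0014, and for NC siRNA #2 against NC siRNA #1 Axin2 ranged from -0.1013 to 0.0704 and Znrf3 from -0.0009 to 0.1197. The cause of these changes was not tested.

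With a replicate block, member counts were 2 for Day3 against Day0, 1 for each knockdown, 3 for siSbp2l against siPdgfra and 0 for both control comparisons, as without it. Correlations of same-numbered deviations ran from -0.38 to 0.473, so the numbers were not taken to pair the samples. Groups of 2 libraries and depths down to 6561225 fragments limit what can be said of Tcf7, Lef1, Rnf43 and Notum. With no filter, Notum in siSbp2l had an adjusted p of 0.026 (limma) at 1.05-fold on the FPKM + 1 scale, from 2 and 4 fragments.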
